A study of Homo sapiens with 6 samples.

Results

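Solute carriers are membrane proteins that move amino acids, sugars, ions, vitamins and organic acids across the plasma membrane and the membranes of organelles, and the gene symbol SLC is followed by a family number. Families SLC1 to SLC24 hold most of the classical importers of the cell surface. Some carry their substrate down its own gradient, while many couple it to sodium, whose gradient the sodium pump keeps up. The members described here are the genes whose symbol has the form SLC, a family number from 1 to 24, a letter and a gene number, with nothing after it. The carriers SLC7A11, SLC3A2, SLC11A2, SLC2A1, SLC2A3, SLC16A3, SLC7A5 and SLC7A1 were set aside by the rule and are used only for comparison. That left 101 members in 23 families, of 17211 genes in the table, and family 21 has no symbol of this form. Antisense transcripts, divergent transcripts, pseudogenes and neighbours that carry an SLC name with a suffix, 17 symbols in all, were not members.

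The data were poly(A) RNA-seq of CAOV2, a human ovarian cancer cell line that the sample titles also call primary. Cells were held with 100 pmol of siRNA and 6 µL of a lipid reagent for 2 days and harvested on day 3. One group received an siRNA reagent against YAP (siYAP, 3 libraries) and the other a non-targeting siRNA (siNT, 3 libraries). No other allele or drug is named in the labels, and both groups shared the cell line, medium and reagent dose. The siRNAs came from different suppliers, so the loss of YAP and a difference between the reagents cannot be told apart. The YAP1 product has no DNA-binding domain of its own and switches genes on through the TEAD factors, while the Hippo kinases hold it back.

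Reads per library over the listed genes ranged from 29029760 to 31790340 in siYAP and from 25478595 to 28928432 in siNT. The targeted gene, YAP1, had 278, 327 and 294 normalized read counts in the siYAP libraries, against 6221, 5801 and 5955 in the siNT libraries, so the libraries matched their labels, with 5.00% of the siNT level left. The epithelial markers KRT8, KRT18, KRT19, CLDN4, CLDN7, CDH1 and EPCAM were all read well above the floor. Of the ovarian carcinoma markers, PAX8, MUC16 and MSLN had means of 6.96 to 17.1 normalized counts in siYAP and 2.63 to 28.8 in siNT. The other measured ones, EPCAM, KRT8, KRT18, KRT7, CRABP2 and MECOM, were well above the floor. KRT7 averaged 11686 in siYAP and 22847 in siNT, and CRABP2 averaged 846 in siYAP and 453 in siNT. MECOM averaged 466 in siYAP and 892 in siNT. Of 7 epithelial markers 3 were higher, 2 lower and 2 not called, and of 9 measured ovarian carcinoma markers 2 were higher, 3 lower and 4 not called. Beside these and the marker counts that follow, 28.6% of all genes tested were called higher and 28.1% lower. The 3 measured immune markers (CD79A, CD68 and LYZ) were lower and summed to 62.5 to 71.3 normalized counts in siYAP and 143 to 145 in siNT, and the 1 endothelial marker, ESAM, was lower, at 1261 to 1338 in siYAP and 1673 to 1873 in siNT. Of the 6 measured fibroblast markers 4 were higher and 2 lower, and they summed to 14299 to 14804 in siYAP and 5609 to 6399 in siNT, mostly through LUM and COL3A1, with COL1A2 at 1.25 in siYAP and 12.6 in siNT. Of the markers chosen for these types, PTPRC, CD3E, PECAM1, CDH5, VWF, DCN and WT1 were not found by symbol among the listed genes, so they have no values here. The part of any of these in the carrier results was not tested.

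Carrier transcripts were more often higher than lower after siYAP. Of the 100 members that passed the filter on low values, 55 were called higher, 16 lower and 29 were not called, at an adjusted p under 0.05 in limma over all genes. Over all 17200 genes tested, 28.6% were called higher and 28.1% lower. The median log2 fold change of the tested members was 0.38 (log2(normalized count + 1), siYAP over siNT), beside 0.00 over all genes. In bulk RNA, more or fewer cells that express a carrier and more or less of its RNA per cell cannot be told apart. A call with at least a 2-fold change was made for 23 members that rose and 1 that fell, against 6.31% and 2.55% of all genes. In 54 members all 3 siYAP libraries lay above all 3 siNT libraries and in 18 below, while the shares over all genes were 30.9% and 30.6%. The member that did not pass the filter, SLC6A19, a neutral amino acid carrier of gut and kidney, had 0.906, 6.91 and 5.71 normalized counts in siYAP and was listed at 0 in each siNT library. SLC4A5 and SLC7A9 passed through their siYAP libraries alone, and both are counted among the 55 called higher and the 23 that rose at least 2-fold. With the libraries scaled to equal totals, 57 members were higher and 14 lower, while all genes gave 6051 higher and 3701 lower, against 4926 and 4841 in the main analysis, and the median over all genes moved to 0.090. The counts of 34 members are less certain, since their exons overlap another listed gene, and among the 66 tested members without an overlap, a split chosen after seeing the data, 38 were higher and 6 lower.

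**Figure D1:**
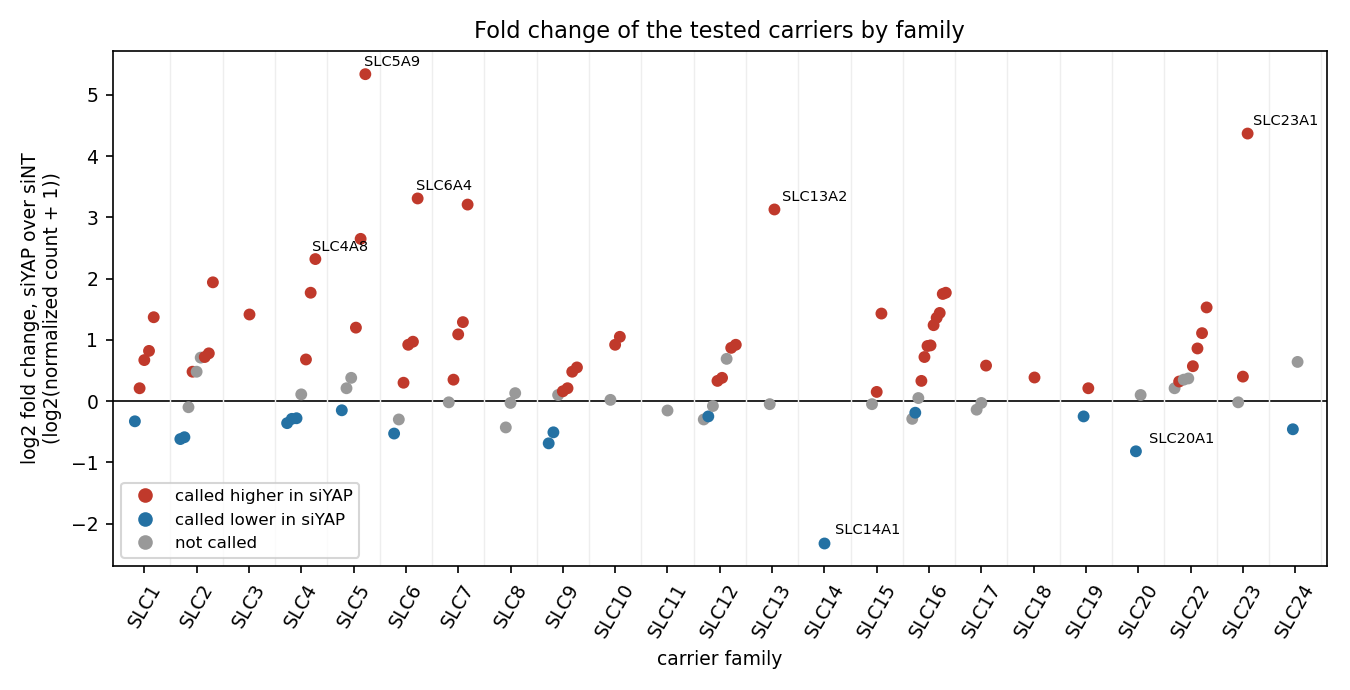
Log2 fold change of siYAP over siNT for each of the 100 tested carriers, 1 point a gene, set out by family on the horizontal axis and coloured by the call in limma. Most coloured points lie above 0, up to 5.34 for SLC5A9, and the lowest is SLC14A1 at -2.31.

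Rises outnumbered falls among the members in each of 3 classes of level. Among members with a mean under 100 normalized counts, 21 of 41 were called higher and 2 lower, where 20.8% and 11.4% of all genes of that level were. Between 100 and 1000, 22 of 34 were higher and 7 lower, beside 36.7% and 28% of all genes. At 1000 or more, 12 of 25 members were higher and 7 lower, beside 29.2% and 43.3% of all genes. Most members with a large fold change had little signal in siNT. Of the 24 members called with at least a 2-fold change, 17 had a siNT mean under 50 normalized counts. By mean over all libraries, 16 of the 23 rises of at least 2-fold lay under 100 normalized counts. Over all genes, 679 of 1086 such rises did.

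**Figure D2:**
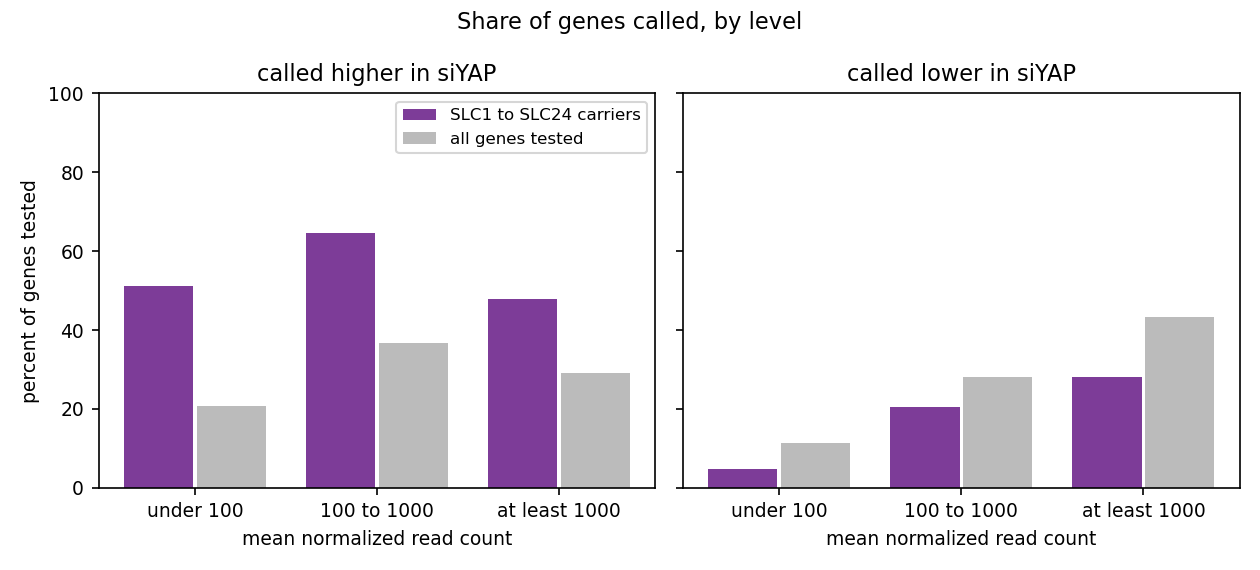
Percent of tested genes called higher (left) and lower (right) in siYAP, for the carriers (purple) and for all genes tested (grey), in 3 classes of mean normalized read count over the 6 libraries. In each class the carriers were called higher more often than all genes, 51.2%, 64.7% and 48% against 20.8%, 36.7% and 29.2%.

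Levels can be compared between carriers only per length of transcript, so they were also expressed as normalized counts per kilobase of annotated exon. On that scale the highest member was SLC1A5, the main glutamine importer of many cancer cells, at 4172 in siYAP and 5245 in siNT. It was followed by the anion exchanger gene SLC4A2, at 2394 in siYAP and 2930 in siNT, and by the phosphate importer gene SLC20A1, at 1137 in siYAP and 2009 in siNT. These 3 genes fell, and they made up 34.2% of the summed carrier level per kilobase in siYAP against 44.5% in siNT. Of the 20 highest members, 9 were called higher, 7 lower and 4 were not called. Among all genes averaging 1000 normalized counts or more, a set not chosen per kilobase, 29.2% were higher and 43.3% lower. The 2 sets are unlike, since some of the 20 averaged fewer counts, such as SLC16A13 at 651 in siYAP and 520 in siNT. Only SLC22A3, the 14th by level, was among both these 20 and the genes named for a 2-fold change. The sum over the 101 members was 22803, 22428 and 22243 per kilobase in the siYAP libraries and 22154, 23165 and 23386 in the siNT libraries. The groups overlapped in this sum, with means of 22491 ± 285 in siYAP and 22902 ± 657 in siNT (SD, n = 3 each). With 3 libraries a group the smallest p of an exact permutation test is 0.1, so this sum was not tested.

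**Figure D3:**
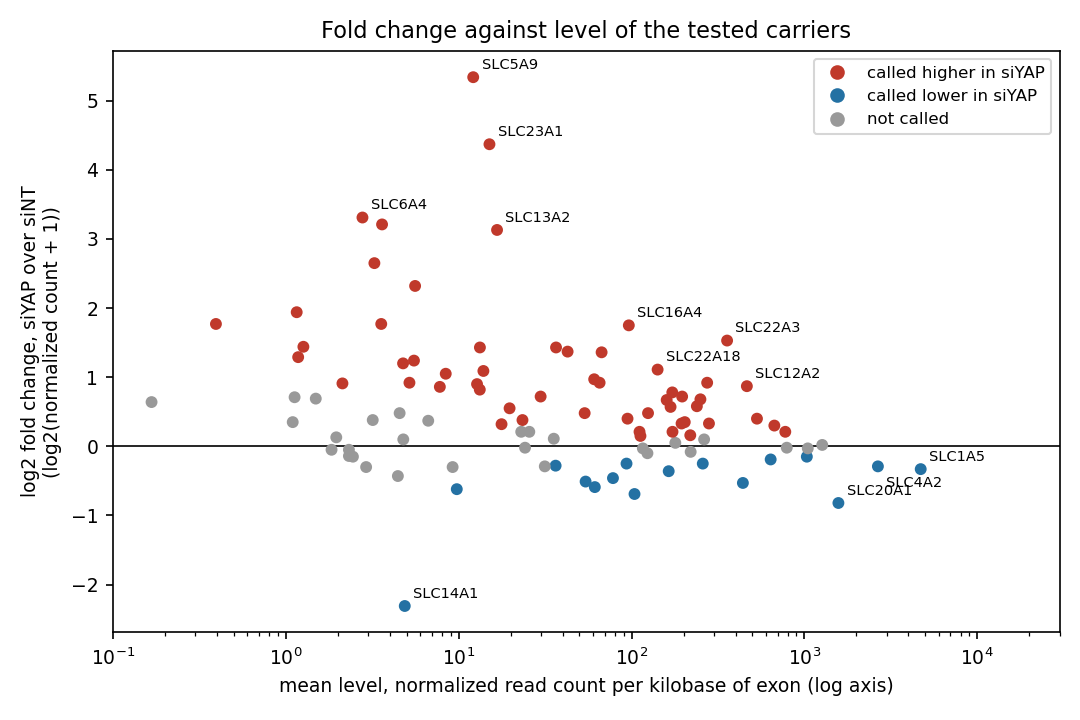
Log2 fold change of siYAP over siNT (vertical axis) against the mean level in normalized read counts per kilobase of exon over the 6 libraries (horizontal, log axis), 1 point per tested carrier, coloured by the call. The 3 most abundant carriers, SLC1A5, SLC4A2 and SLC20A1, lie below 0, and the largest rises lie at low levels.

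The 19 members called with at least a 2-fold change and a mean of at least 20 normalized counts in the higher group are given with every library. They are 18 that rose and SLC14A1, which fell. The groups lay apart in each of them, which their choice by call and size largely fixes. All limma adjusted p-values of these 19 lay between 1.95e-15 and 0.00201. The other 5 members called with at least a 2-fold change, SLC7A9, SLC2A14, SLC4A5, SLC7A8 and SLC16A9, had means under 20 in both groups and were named after their values were seen.

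**Figure D4:**
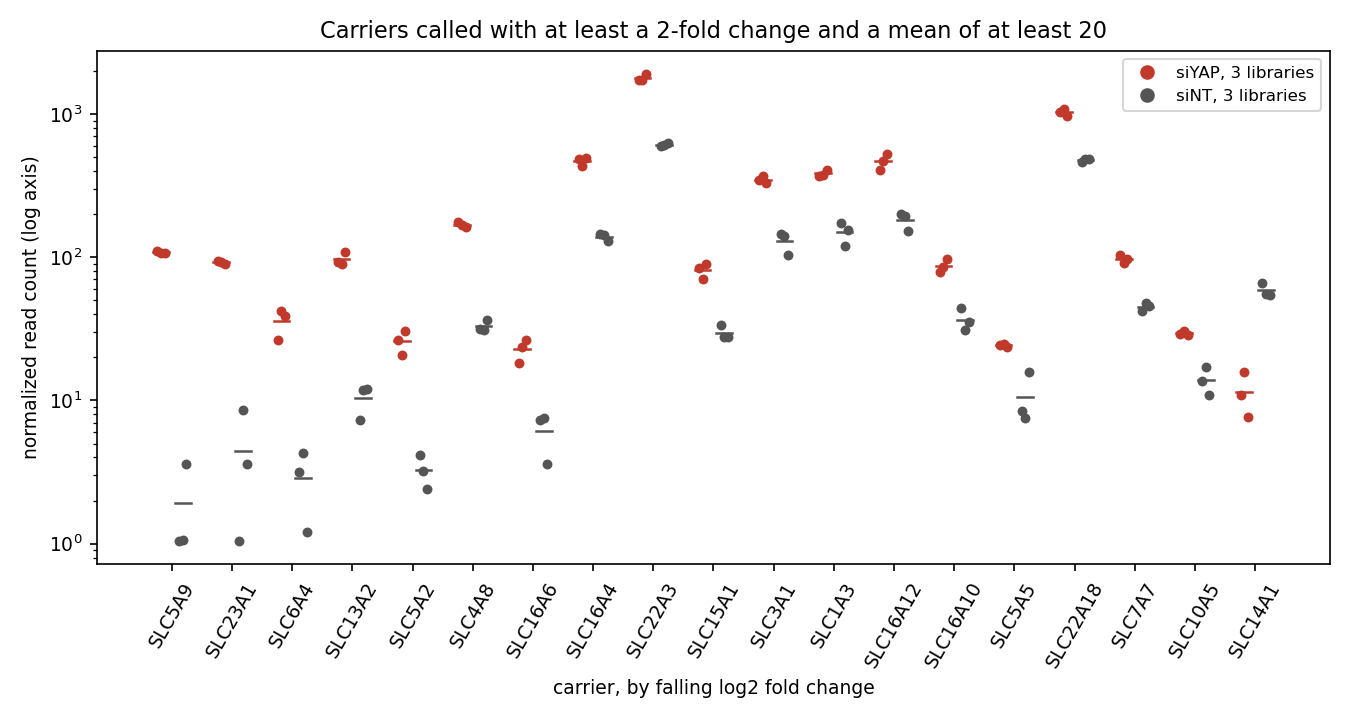
Normalized read counts (log axis) of the 19 carriers called with at least a 2-fold change and a mean of at least 20 in the higher group, by falling fold change, with siYAP libraries in red on the left of each pair and siNT libraries in grey on the right. Points are libraries, 3 a group, and lines are means. SLC14A1, at the right, is the one that is lower in siYAP.

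SLC5A9 (ENSG00000117834, GRCh38 chromosome 1, 48222685 to 48248644, plus strand, protein-coding), a sodium-coupled carrier of mannose and other sugars, had the largest fold change. It had 111, 107 and 107 normalized counts in the siYAP libraries, against 1.05, 1.07 and 3.63 in the siNT libraries, where these values stand for 1, 1 and 3 reads. The log2 fold change was 5.34 with a standard error of 0.322 and 5.99 with a pseudocount of 0.1, so its size rests on the pseudocount. SLC23A1 (ENSG00000170482, GRCh38 chromosome 5, 139367196 to 139384553, minus strand, protein-coding), the sodium-coupled ascorbate importer of gut and kidney epithelium, followed. Its counts were 94.2, 92.8 and 89.4 in siYAP and 1.05, 8.55 and 3.63 in siNT (log2 4.37, standard error 0.381). The 3 siYAP values were close together, and the siNT libraries were all under 10.

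SLC6A4 (ENSG00000108576, GRCh38 chromosome 17, 30194319 to 30236002, minus strand, protein-coding), the serotonin importer, had 26.3, 42.4 and 39 normalized counts in siYAP and 3.14, 4.28 and 1.21 in siNT (log2 3.31). SLC13A2 (ENSG00000007216, GRCh38 chromosome 17, 28473293 to 28497781, plus strand, protein-coding), which takes up citrate and succinate with sodium at the apical membrane of gut and kidney, had 93.3, 89.8 and 108 in siYAP and 7.33, 11.8 and 12.1 in siNT (log2 3.13). SLC5A2 (ENSG00000140675, GRCh38 chromosome 16, 31483002 to 31490860, plus strand, protein-coding), the main glucose importer of the proximal kidney tubule, had 26.3, 20.7 and 30.4 in siYAP and 4.19, 3.21 and 2.42 in siNT (log2 2.65). All 3 were low in the siNT libraries and higher in every siYAP library. SLC5A2 shares exon positions with RUSF1 on the other strand, which was itself higher (1508 ± 84.7 in siYAP, 1029 ± 51.5 in siNT), and the strand setting of the counting was not stated in the sources used.

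SLC4A8 (ENSG00000050438, GRCh38 chromosome 12, 51391317 to 51515763, plus strand, protein-coding), a sodium-driven chloride and bicarbonate exchanger, had 177, 167 and 162 normalized counts in siYAP and 31.4, 31 and 36.3 in siNT (log2 2.32, standard error 0.145). Its exons overlap GALNT6 on the other strand, which went the opposite way, at 176 ± 19.9 in siYAP and 516 ± 12.5 in siNT. The only fall of at least 2-fold was that of SLC14A1 (ENSG00000141469, GRCh38 chromosome 18, 45687025 to 45752520, plus strand, protein-coding), the urea transporter of red cells and kidney vessels. It had 10.9, 15.8 and 7.61 in siYAP and 66, 55.6 and 54.4 in siNT (log2 -2.31, standard error 0.256).

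Promoter sequences show what lies at the start sites of these genes. A window of 300 bases, 250 before to 50 after the RefSeq start on GRCh38.p14, was found for 79 of the 101 members. The windows shown are those of the 5 largest rises among the named genes with a window, and of SLC14A1, 5′ to 3′ on the gene's strand. They were searched on both strands for GGAATG, the core that TEAD factors bind, and for GTTAAT, a half-site of the HNF1 factors, which are known to act on carrier genes of kidney and gut. Capitals mark the matches, and the 2 motifs share no position in them.
SLC23A1 (chr5:139383248-139383547, minus strand): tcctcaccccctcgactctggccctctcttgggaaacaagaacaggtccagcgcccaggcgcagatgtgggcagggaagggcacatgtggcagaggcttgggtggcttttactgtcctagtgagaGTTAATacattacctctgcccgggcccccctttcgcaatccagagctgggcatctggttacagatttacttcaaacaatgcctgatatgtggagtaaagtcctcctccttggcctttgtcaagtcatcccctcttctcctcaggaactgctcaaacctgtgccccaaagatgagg
SLC6A4 (chr17:30235648-30235947, minus strand): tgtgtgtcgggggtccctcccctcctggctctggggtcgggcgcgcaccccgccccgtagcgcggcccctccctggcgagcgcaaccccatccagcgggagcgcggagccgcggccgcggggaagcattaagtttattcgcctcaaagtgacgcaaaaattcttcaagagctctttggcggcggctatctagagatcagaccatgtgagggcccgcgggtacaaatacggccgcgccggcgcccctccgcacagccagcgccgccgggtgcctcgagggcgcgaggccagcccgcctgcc
SLC13A2 (chr17:28473394-28473693, plus strand): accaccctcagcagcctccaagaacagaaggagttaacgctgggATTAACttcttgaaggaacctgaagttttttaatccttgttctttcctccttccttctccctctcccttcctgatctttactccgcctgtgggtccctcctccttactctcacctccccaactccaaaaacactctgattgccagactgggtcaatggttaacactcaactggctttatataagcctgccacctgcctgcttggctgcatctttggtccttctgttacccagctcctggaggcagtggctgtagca
SLC5A2 (chr16:31482873-31483172, plus strand): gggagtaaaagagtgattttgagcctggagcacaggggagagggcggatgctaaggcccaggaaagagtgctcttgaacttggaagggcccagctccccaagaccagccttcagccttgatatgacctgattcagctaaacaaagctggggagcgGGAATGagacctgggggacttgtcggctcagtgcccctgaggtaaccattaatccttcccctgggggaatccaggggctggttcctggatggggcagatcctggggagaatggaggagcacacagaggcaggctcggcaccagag
SLC4A8 (chr12:51424581-51424880, plus strand): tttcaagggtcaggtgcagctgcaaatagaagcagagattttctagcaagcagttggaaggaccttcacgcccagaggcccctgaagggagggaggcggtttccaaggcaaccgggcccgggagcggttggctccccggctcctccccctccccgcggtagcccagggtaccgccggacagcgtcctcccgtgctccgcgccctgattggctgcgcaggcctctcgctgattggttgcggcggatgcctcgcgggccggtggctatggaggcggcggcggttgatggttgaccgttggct
SLC14A1 (chr18:45723931-45724230, plus strand): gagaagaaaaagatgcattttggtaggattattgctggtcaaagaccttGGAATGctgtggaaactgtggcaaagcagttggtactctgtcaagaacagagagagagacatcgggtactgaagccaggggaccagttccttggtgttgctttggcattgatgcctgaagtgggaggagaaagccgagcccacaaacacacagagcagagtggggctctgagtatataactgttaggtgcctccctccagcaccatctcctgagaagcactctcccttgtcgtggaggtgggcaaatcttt

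The TEAD core was present once in SLC5A2, starting 95 bases before the start, and once in SLC14A1, starting 201 bases before it, so in 1 gene that rose and in the gene that fell. The HNF1 half-site was present once in SLC23A1, starting 125 bases before the start, and once in SLC13A2, starting 206 bases before it. Over all 35116 windows of the table, 14% held the TEAD core and 6.88% the HNF1 half-site. That set was not limited to the tested genes or to 1 window a gene. G and C made up 57.5% of its bases, against 62% in the windows of the members, so the 2 sets are unlike. Among the members with a window, 6 of 43 called higher and 2 of 12 called lower held the TEAD core. Over all 79 members with a window, tested or not, 9 (11.4%) held the HNF1 half-site. It was held by 6 of the 43 called higher and by 2 of the 23 not called, while the 12 called lower held no copy in this window. These counts are small, and a link between the half-site and the calls was not tested. The windows come from 1 annotated start a gene, and other starts were not searched.

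Carriers of amino acids and peptides, families SLC1, SLC3, SLC6, SLC7 and SLC15, gave 15 rises, 2 falls and 3 uncalled members among the 20 tested. That is 75% higher and 10% lower, beside 28.6% and 28.1% of all genes. The median log2 fold change of these carriers was 0.74, beside 0.00 over all genes. The summed level per kilobase was 7708 ± 178 in siYAP and 8410 ± 327 in siNT (SD, n = 3 each), with SLC1A5 giving 4172 of it in siYAP and 5245 in siNT. SLC1A5 (ENSG00000105281, GRCh38 chromosome 19, 46774883 to 46788594, minus strand, protein-coding) had 14314, 13655 and 13729 normalized counts in siYAP and 16471, 17700 and 18256 in siNT (log2 -0.33, limma adjusted p = 9.64e-07). It was lower in every siYAP library, at 79.5% of the siNT mean.

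The other 4 measured members of family SLC1 rose. SLC1A3, a glial-type glutamate importer, had 369.7, 377 and 407 normalized counts in siYAP and 175, 119.7 and 156 in siNT (log2 1.37, standard error 0.113). SLC1A4, which exchanges alanine, serine and cysteine, averaged 1362 ± 72.4 in siYAP and 855 ± 12.9 in siNT. SLC1A1, the glutamate and cysteine importer of neurons and kidney, averaged 67.8 ± 7.92 in siYAP and 38.2 ± 6.33 in siNT (SD, n = 3). SLC1A7, best known from the retina, rose least (log2 0.21), and its lowest siYAP library met its highest siNT library, at 4067 and 4067 normalized counts.

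SLC3A1 is the heavy chain that pairs with the light chain SLC7A9 to import cystine and dibasic amino acids in kidney and gut. SLC3A1 (ENSG00000138079, GRCh38 chromosome 2, 44275458 to 44321494, plus strand, protein-coding) had 345, 371 and 330.0 normalized counts in siYAP and 146, 140.0 and 104 in siNT (log2 1.43). Its exons overlap PREPL on the other strand, at 2772 ± 157 in siYAP and 2247 ± 193 in siNT. SLC7A9 itself had 13.6, 10.9 and 28.5 normalized counts in siYAP and 1.05, 2.14 and 0 in siNT (log2 3.21, standard error 0.533), with siYAP replicate 3 the highest. It passed the filter on low values through its siYAP libraries alone. SLC7A7, a light chain that exports dibasic amino acids, had 103, 91.8 and 97 in siYAP and 41.9, 48.1 and 45.9 in siNT (log2 1.09). The other SLC7 members were SLC7A2, a cationic amino acid importer, which rose (log2 0.35), SLC7A8, which was called near the floor with overlapping groups (log2 1.29) and SLC7A6. SLC7A6, the most abundant of the family per kilobase among the members, averaged 5956 ± 262 in siYAP and 6044 ± 148 in siNT and was not called (limma adjusted p = 0.703).

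While 28.6% of all genes rose, 4 of the 6 tested members did so in family SLC6, sodium- and chloride-coupled importers. Beside SLC6A4, they were SLC6A6, the taurine importer, the glycine importer SLC6A9 and the proline importer SLC6A20. SLC6A6, the highest of the family per kilobase, had 6203, 5963 and 6128 normalized counts in siYAP and 4926, 5122 and 4847 in siNT (log2 0.30). SLC6A9 averaged 416 ± 19 in siYAP and 212 ± 18.6 in siNT, and SLC6A20 averaged 45.5 ± 5.11 in siYAP and 23.6 ± 3.8 in siNT (SD, n = 3). SLC6A8, the creatine importer, fell to 1990 ± 256 in siYAP, against 2856 ± 212 in siNT (log2 -0.53). Among proton-coupled peptide carriers, SLC15A1, the oligopeptide importer of the gut, had 84.3, 71.1 and 89.4 in siYAP and 33.5, 27.8 and 27.8 in siNT (log2 1.43). SLC15A4, a lysosomal histidine and peptide carrier, differed by a log2 of 0.15 (limma adjusted p = 0.0434), a call that was lost with DESeq2 and without any one of 5 of the 6 libraries.

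Families SLC2 and SLC5 hold the glucose carriers. Among their 15 tested members there were 7 rises, 3 falls and 5 without a call (median 0.48). That is 46.7% higher and 20% lower, beside 28.6% and 28.1% of all genes. In SLC2, the facilitative hexose carriers, 4 of 9 members rose and 2 fell. SLC2A8, an intracellular form and the highest member of the family per kilobase, had 999, 968 and 915 normalized counts in siYAP and 549, 602 and 592 in siNT (log2 0.72). SLC2A6, found on lysosomes, averaged 769 ± 19.9 in siYAP and 449 ± 15.8 in siNT (SD, n = 3), and SLC2A11 also rose (log2 0.48). SLC2A12 fell to 218 ± 17.3 in siYAP, against 330.4 ± 44.5 in siNT, and SLC2A4, the insulin-responsive carrier of muscle and fat, fell at a low level (log2 -0.62). SLC2A13, a myo-inositol carrier, was not called (log2 -0.10). SLC2A14 rose at the floor, with 10.9, 10.9 and 10.5 in siYAP and 3.14, 2.14 and 1.21 in siNT. It is a near copy of SLC2A3, one of the genes set aside, which fell (log2 -0.80), and how reads shared by the 2 genes were counted was not stated in the sources used.

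Not every SLC5 member carries sugar. SLC5A5, the sodium-iodide importer of the thyroid, had 24.5, 24.7 and 23.8 normalized counts in siYAP and 8.38, 7.48 and 15.7 in siNT (log2 1.2). SLC5A6, which imports biotin and pantothenate, was the highest of the family per kilobase. It had 5419, 5539 and 5519 in siYAP and 5863, 6055 and 6342 in siNT (log2 -0.15, limma adjusted p = 0.00601), a small fall that was not called with the libraries scaled to equal totals or without siNT replicate 3. SLC5A12, a lactate carrier, was not called, at 208 ± 6.86 in siYAP and 179 ± 11.5 in siNT, although the libraries did not overlap.

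Carriers of organic ions, families SLC10, SLC13, SLC16 and SLC22, rose in most cases. Of 25 members 17 were higher, 1 lower and 7 not called, with a median of 0.86. That is 68% higher and 4% lower, beside 28.6% and 28.1% of all genes. The summed level per kilobase of these carriers was 3833 ± 31.1 in siYAP and 3031 ± 52.4 in siNT (SD, n = 3 each). SLC16, the monocarboxylate carriers, gave 9 of the rises. SLC16A4, a member with little known of its substrate, had 485, 437 and 493 normalized counts in siYAP and 146, 143 and 129 in siNT (log2 1.75, standard error 0.0912). SLC16A12, which carries creatine, had 409.6, 467 and 525 in siYAP and 199, 195 and 152 in siNT (log2 1.36). SLC16A10, for aromatic amino acids, had 78.8, 85.9 and 97 in siYAP and 44, 31 and 35 in siNT (log2 1.24).

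SLC16A6, a ketone body carrier in zebrafish, had 18.1, 23.7 and 26.6 normalized counts in siYAP and 7.33, 7.48 and 3.63 in siNT (log2 1.77). It overlaps ARSG on the other strand, which was higher too (95 ± 6.54 in siYAP, 62.9 ± 6.81 in siNT). SLC16A7, a high-affinity importer of pyruvate and lactate, averaged 508 ± 29.7 in siYAP and 307 ± 9.51 in siNT, and SLC16A13 averaged 651 ± 27.6 in siYAP and 520.1 ± 50.4 in siNT (SD, n = 3). SLC16A9, SLC16A11 and SLC16A14 rose at low levels, and the highest of them, SLC16A11, averaged 33.8 ± 2.93 in siYAP and 18.4 ± 6.67 in siNT. SLC16A5 was not called (log2 0.05). SLC16A1, the main bidirectional lactate carrier and the highest of the family per kilobase, went the other way. It had 3077, 3151 and 3279 in siYAP and 3748, 3436 and 3647 in siNT (log2 -0.19, limma adjusted p = 0.00179), and this call was lost with equal totals. SLC16A3, the lactate exporter set aside by the rule, was also lower, at 1901 ± 152 in siYAP and 3434 ± 146 in siNT.

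In family SLC22, carriers of organic cations and anions, 5 of 8 members rose and 3 were not called, where 28.6% of all genes rose. SLC22A3 (ENSG00000146477, GRCh38 chromosome 6, 160348268 to 160452581, plus strand, protein-coding), a low-affinity importer of monoamines and other organic cations, had the smallest adjusted p of all members. Its normalized counts were 1716, 1717 and 1902 in siYAP and 603, 611 and 624 in siNT (log2 1.53, standard error 0.0574, limma adjusted p = 1.95e-15). SLC22A18, an imprinted gene, had 1034, 1086 and 966 in siYAP and 459.7, 486 and 482 in siNT (log2 1.11). Its antisense partner SLC22A18AS overlaps it and was higher as well, at 60.4 ± 7.39 in siYAP and 17.7 ± 2.67 in siNT. SLC22A23 (log2 0.57), SLC22A15 (log2 0.86) and the carnitine importer SLC22A5 (log2 0.32) also rose.

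In family SLC10, named for its bile acid importers, SLC10A5 had 29, 30.6 and 28.5 normalized counts in siYAP and 13.6, 17.1 and 10.9 in siNT (log2 1.05), and SLC10A7, needed for calcium handling and glycosylation, averaged 572 ± 34.6 in siYAP and 303 ± 18.9 in siNT. SLC10A3, the highest of the family per kilobase, was not called, at 2872 ± 99.7 in siYAP and 2828 ± 126 in siNT (SD, n = 3). The second SLC13 member, SLC13A3, a dicarboxylate importer, was not called either (log2 -0.05, limma adjusted p = 0.911).

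Carriers of ions that set pH, volume and calcium, families SLC4, SLC8, SLC9, SLC12 and SLC24, gave 11 of 27 higher, 7 lower and 9 not called and a median of 0.13. That is 40.7% higher and 25.9% lower, beside 28.6% and 28.1% of all genes. Their summed level per kilobase was 5272 ± 84.8 in siYAP and 5275 ± 210 in siNT (SD, n = 3 each). In family SLC4, SLC4A2 had 18940, 17962 and 17617 normalized counts in siYAP and 20642, 22779 and 23295 in siNT (log2 -0.29). SLC4A4, an electrogenic sodium bicarbonate carrier, and SLC4A11 also fell (log2 -0.28 and -0.36). SLC4A7, an electroneutral one, rose to 2963 ± 199 in siYAP, against 1851 ± 164 in siNT (log2 0.68). SLC4A5 was called at the floor (log2 1.77, standard error 0.722), with 9.97, 2.96 and 2.85 in siYAP and 0, 3.21 and 0 in siNT, so the groups overlapped.

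Of the 7 sodium-proton exchangers of family SLC9, 4 rose, 2 fell and 1 was not called, beside 28.6% higher and 28.1% lower over all genes. The Golgi and endosomal exchangers SLC9A8 and SLC9A7 fell, to 555 ± 47.4 in siYAP against 891 ± 18.4 in siNT and to 448 ± 3.88 in siYAP against 641 ± 22.1 in siNT (SD, n = 3). SLC9B2 (log2 0.48) and SLC9A5 (log2 0.55) rose, and SLC9A2 was not called.

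The cation-chloride carriers of family SLC12 gave 4 rises, 1 fall and 3 members that were not called, beside 28.6% higher and 28.1% lower over all genes. SLC12A2 (ENSG00000064651, GRCh38 chromosome 5, 128083766 to 128189688, plus strand, protein-coding), the sodium, potassium and chloride importer that raises cell volume, had 6184, 6375 and 6655 normalized counts in siYAP and 3629, 3562 and 3329 in siNT (log2 0.87, standard error 0.0466). SLC12A7, a potassium-chloride exporter, also rose, with 2188, 2144 and 2097 in siYAP and 1035, 1214 and 1154 in siNT (log2 0.92). The related exporter SLC12A4 was not called (log2 -0.08). SLC12A9 (log2 0.33) and SLC12A8 (log2 0.38) rose.

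Where limma called 56.8% of all genes tested, sodium-calcium exchangers of family SLC8 gave 0 calls among 3 members. There were 0 at an unadjusted p under 0.05, and 0 with edgeR and with DESeq2. The mitochondrial exchanger SLC8B1, the highest of them per kilobase, averaged 779 ± 31.9 normalized counts in siYAP and 795 ± 30.5 in siNT (SD, n = 3). SLC24A1, a potassium-dependent sodium-calcium exchanger known from rod photoreceptors, fell to 598 ± 31.3 in siYAP, against 821 ± 22.6 in siNT (log2 -0.46).

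Of the 4 members for phosphate, urea and metals, 2 fell and 2 were not called, where 28.1% of all genes fell. SLC20A1 (ENSG00000144136, GRCh38 chromosome 2, 112645857 to 112663827, plus strand, protein-coding), the sodium-coupled phosphate importer that also serves as a retrovirus receptor, had the largest fall among the members averaging 1000 normalized counts or more, while SLC16A3 and SLC11A2, set aside by the rule, had larger ones (log2 -0.86 and -1.23). It had 6366, 6269 and 6387 normalized counts in siYAP and 11241, 10835 and 11529 in siNT (log2 -0.82, standard error 0.0411, limma adjusted p = 1.99e-13). Its paralog SLC20A2 averaged 1804 ± 65.8 in siYAP and 1688 ± 56.4 in siNT (SD, n = 3) and was not called (limma adjusted p = 0.113). SLC11A1, the macrophage metal carrier, was low and not called, at 19.8 ± 2.77 in siYAP and 22.6 ± 6.66 in siNT.

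Among the vesicular and organic anion carriers, SLC17A5, the lysosomal exporter of sialic acid, and SLC18B1, a vesicular polyamine carrier, rose (log2 0.58 and 0.40). SLC17A9, which loads nucleotides into vesicles and was the highest of its family per kilobase, averaged 5718 ± 259.6 normalized counts in siYAP and 5835 ± 276 in siNT and was not called, nor was SLC17A7. Of the 5 members of the vitamin carrier families SLC19 and SLC23, 3 rose, 1 fell and 1 was not called. Over all genes, 28.6% were higher and 28.1% lower. SLC5A6, counted with family SLC5, is not among these 5. The second ascorbate importer, SLC23A2, had 787, 803 and 839 in siYAP and 598, 622 and 626 in siNT (log2 0.40), a far smaller fold change than that of SLC23A1 but from a higher level per kilobase (81.9 in siNT, where SLC23A1 had 1.38). The folate importer SLC19A1 fell to 2362 ± 96.4 in siYAP, against 2803 ± 139 in siNT (log2 -0.25), and the thiamine importer SLC19A2 rose (log2 0.21).

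Further members, SLC2A9, SLC2A10, SLC4A3, SLC5A10, SLC6A16, SLC8A1, SLC8A2, SLC12A3, SLC12A5, SLC15A2, SLC22A4, SLC22A17, SLC23A3 and SLC24A2, were not called and had overlapping groups. Their log2 fold changes lay between -0.43 for SLC8A2 and 0.71 for SLC2A9, and the highest of them by siNT mean was SLC4A3, at 188 ± 21.5 in siYAP and 174 ± 19.8 in siNT.

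Of the 8 carriers set aside by the rule, 6 were called lower, 1 higher and 1 was not called. Over all genes, 28.1% were lower and 28.6% higher. The median log2 fold change of these 8 was -0.52. The largest fall among them was that of SLC11A2, the iron importer (log2 -1.23), and SLC7A11, the cystine importer, was the one that rose (log2 1.96). SLC3A2, the heavy chain that SLC7A7, SLC7A6 and SLC7A8 need, averaged 7073 ± 239 normalized counts in siYAP and 8340 ± 443 in siNT (log2 -0.24).

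Proteins that carriers depend on were read from lists, beside which 28.6% of all genes tested rose and 28.1% fell. Of 8 measured subunits and regulators of the sodium pump, 3 rose, 1 fell and 4 were not called, with a median log2 fold change of 0.03. FXYD5, a regulatory subunit, fell (log2 -0.73). Of 11 measured partners and scaffolds, 4 rose, 2 fell and 5 were not called, with a median of 0.16. PDZK1, the scaffold that holds carriers at the apical membrane of kidney and gut, had 634, 592 and 623 in siYAP and 103, 104 and 90.6 in siNT (log2 2.63, standard error 0.0912). NHERF1, a second scaffold of the same kind, rose to 7127 ± 446 in siYAP, against 4607 ± 338 in siNT. BSG, the chaperone that monocarboxylate carriers such as SLC16A1 need to reach the surface, fell (log2 -0.41), and PDZK1IP1, a partner of SLC5A2, fell at the floor, with 0.906, 0 and 0.951 in siYAP and 4.19, 11.8 and 10.9 in siNT. CLTRN, which brings SLC6A19 to the surface, was near the floor and not called (log2 0.81). Among 5 measured kinases that switch the SLC12 carriers, WNK1 and WNK2 rose by a log2 of 0.16 and 0.30, OXSR1 fell (log2 -0.17) and 2 were not called.

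Replicates are biological per their titles, with nothing said of what was separate between them, and the p-values cover only the spread seen here, which may be technical.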

How the data were processed

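Normalized read counts per gene were deposited as 1 table for 6 libraries, a signal whose values show that the authors scaled whole read counts by 1 factor per library. The builds hg19 and mm9 and the tools HISAT2, HTSeq, DESeq2 and FastQC are named per the submitters' processing notes. The sources used here give no version, annotation, strand setting or gene filter. Of the deposited signal values, 100% were whole multiples of 1 read (tolerance 0.01), worth 0.906 to 1.21 normalized counts, which sets the smallest step near the floor. Groups came from the titles.

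Values were tested as log2(value + 1), with limma 3.58.1 in R 4.3.3 (trend and robust empirical Bayes), group alone, over the 17200 genes that reached 1 in 3 libraries, with Benjamini-Hochberg adjustment and a threshold of 0.05. This test had been planned for normalized values, and edgeR as the main test for raw counts only. Fold changes on this scale understate those of low genes. The code was tested on simulated data. The alternatives covered scaling, filtering, the pseudocount, limma with no trend, a block for the replicate number, single libraries left out and, on recovered reads, edgeR 4.0.16 and DESeq2 1.42.0.

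Symbols were matched by Ensembl identifier (16662 of 17211). Coordinates, exon lengths and overlaps are those of GENCODE 29 on GRCh38, since the deposited table holds none, and 34 members share exon positions with another listed gene. Promoters are from RefSeq. A few members and listed genes are counted but not reported here by name. Members named with all values were those called with an absolute log2 fold change of at least 1 and a mean of at least 20 in the higher group, and the highest of each family per kilobase. Members, lists and families were chosen with earlier results of these data known. No 2 libraries of a group agreed within sampling noise (chi-square over its degrees of freedom, 2.75 to 7.5), and each counts as a replicate.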

Additional observations from a re-analysis of the deposited data

How the results depend on the processing

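Under the alternatives that kept overlapping members, 50 to 57 members were called higher and 14 to 18 lower, against 55 and 16 in the main analysis, and no result reversed. Leaving out each library in turn gave 50 to 53 higher, 15 to 18 lower, a member median of 0.34 to 0.39, 31 to 33 of the 38 named members called, and a YAP1 log2 fold change of -4.38 to -4.27. The member median, 0.38, was 0.38 with TMM factors, 0.39 with upper-quartile factors, 0.46 with equal totals, 0.33 with a mean of at least 10, 0.39 with a pseudocount of 0.1, 0.35 with edgeR, 0.40 with DESeq2 and 0.53 without members that overlap another gene. The last split, chosen after seeing the data, left 66 tested members, of which 38 were higher and 6 lower, and the fewer members account for part of that lower count. The calls lost among the named members were those of SLC5A6 (limma adjusted p = 0.229 with equal totals and 0.0543 without siNT replicate 3), SLC16A1 (0.0757 with equal totals), SLC15A4 and 1 more; the cause was not tested. Same-numbered libraries showed no shared deviation (correlations of -0.096, -0.009 and 0.008), beside -0.091 to 0.101 for libraries of different numbers. Whether same-numbered libraries shared a culture or a day cannot be told from these values. With the replicate number as a block, 53 members were higher and 16 lower, and 2 named members lost their calls, SLC15A4 (limma adjusted p = 0.0881) among them. Members with a few reads per library, such as SLC4A5 and SLC24A2, are limited by depth.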
